A study of Mus musculus with 8 samples.

Results

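The genes described here encode the tubulin folding cofactors and a set of microtubule regulators: Tbca, Tbcb, Tbcc, Tbcd, Ttc5, Stmn1, Mapre1, Mapre2, Map4 and Map7d1. They were taken by gene symbol, as 10 of the 23356 genes listed in the expression table, and all 10 were quantified in every group. The cells were bone marrow-derived dendritic cells (BMDCs), grown for 6 days from marrow of C57BL/6 background mice (C57BL/6N in the methods), sex-matched adults, in GM-CSF and IL-4, each at 10 ng/ml. Cells came from wild-type (WT) mice or from mice lacking Arhgef2, the gene of GEF-H1, a guanine nucleotide exchange factor held on microtubules. They were left without treatment (NT) or received 100 nM ansamitocin-P3 (AP3), a maytansinoid that binds tubulin and depolymerises microtubules, and both were collected at 5 h. The 4 groups were WT NT, WT AP3, Arhgef2-/- NT and Arhgef2-/- AP3, each from 2 libraries, and the comparisons asked how the loss of microtubules changed transcript levels and whether the change differed without GEF-H1. The Arhgef2 loss was carried by the mice that gave the marrow and was not limited to dendritic cells.

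A tubulin dimer is assembled stepwise. The chaperonin CCT and prefoldin fold the nascent chains, and the cofactors TBCA to TBCE then take up alpha or beta tubulin, join them and release the dimer ready for polymerisation. Free dimers are held by stathmin, growing microtubule ends are bound by the EB proteins, and the lattice is bound by structural microtubule-associated proteins. When free tubulin accumulates, TTC5 binds the first residues of nascent tubulin on the ribosome and brings about decay of the tubulin mRNA.

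Each group had 1 pooled value per gene in FPKM, fragments counted per length of transcript and per total of mapped fragments, which is per length and so can be compared between genes. The authors' program Cuffdiff gave a 95% interval with it, given below in parentheses. No library values were used, so no difference was tested against the spread between the 2 libraries of a group, and the sources do not say how far the interval covers that spread. A difference is given as the log2 ratio of (FPKM + 1), which understates the change of low genes, with a 95% interval propagated from both Cuffdiff intervals. Arhgef2 was at 42.3 FPKM in WT NT, 45.9 in WT AP3, 4.59 in Arhgef2-/- NT and 4.16 in Arhgef2-/- AP3, in the order of the genotype labels. Among markers, all 6 dendritic cell genes were above 1 FPKM in all 4 groups. Their summed level was 5352 FPKM in WT NT, 6700 in WT AP3, 4482 in Arhgef2-/- NT and 4791 in Arhgef2-/- AP3. Transcripts of other cells were present too: 6 neutrophil granule and calgranulin genes summed to between 21129 and 36150 FPKM, and 3 mast cell and basophil genes to between 101 and 165 FPKM, with Arhgef2-/- above WT. The neutrophil sum, nearly all S100a8 and S100a9, was lower in Arhgef2-/-. The S100a8 value lay above its own interval, at 19401 FPKM (9356 to 16474) in WT NT, so the sum is uncertain. The list was also split. The late granule genes Camp and Ltf were lower in Arhgef2-/-. The early granule gene Mpo was higher, at 26.4 FPKM in WT NT and 63.1 in Arhgef2-/- NT. Elane, another early granule gene, was at 20.7 FPKM (0 to 93.1) and 45.9 (0 to 152.0), intervals too wide to tell the genotypes apart. The 3 lymphoid markers summed to between 2.80 and 4.97 FPKM and the 2 erythroid markers to under 1 FPKM in every group.

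With ansamitocin-P3, 3 of the 10 members had a group interval apart from that of the untreated WT cells, Map7d1 above it and Mapre2 and Ttc5 below it, where 9.19% of all genes were apart above and 7.58% below. By the less strict rule that the propagated interval of the log2 ratio leaves out 0, chosen after the data were seen, Map4 and Mapre1 were also higher, which made 3 members higher and 2 lower against 15.6% and 14.5% of all genes. The lattice-binding genes Map7d1 and Map4 and the end-binding gene Mapre1 were higher, at 1.60, 1.48 and 1.41 times the untreated level on the (FPKM + 1) scale. The end-binding gene Mapre2 and the autoregulation gene Ttc5 were lower, at 0.627 and 0.649 times. The 4 folding cofactors and Stmn1 lay within a log2 ratio of 0.26 of their untreated level in WT. In Arhgef2-/- cells 0 of 10 members passed either rule, against 3.70% and 8.97% of all genes, which is near the background.

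**Figure D1:**
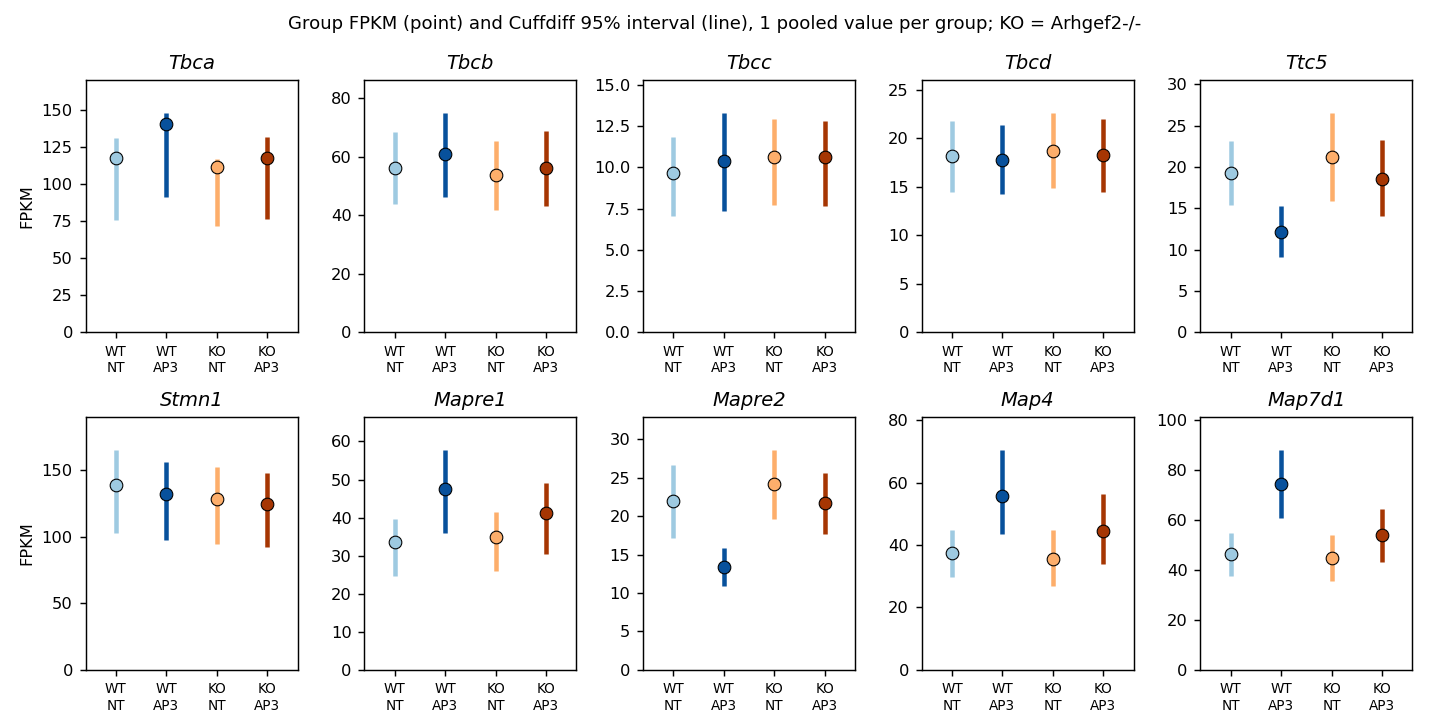
FPKM (vertical axis, from 0) of the 10 members in the 4 groups, with points for the pooled group value and lines for the Cuffdiff 95% interval (KO, Arhgef2-/-). The WT AP3 point of Ttc5 (12.2 FPKM) and Mapre2 (13.4 FPKM) is the lowest of the 4 groups, and that of Mapre1, Map4 and Map7d1 is the highest. It is also the lowest for Tbcd (17.8 FPKM) and the highest for Tbca (140.6 FPKM) and Tbcb (61.1 FPKM), where all 4 intervals overlap.

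Among the folding cofactors, Tbca, which holds beta tubulin released from the chaperonin, was the most abundant (chr13:94788943-94842899, mm10). It was at 117.6 FPKM (75.9 to 131.5) in WT NT, 140.6 (91.5 to 148.3) in WT AP3, 112.0 (71.8 to 116.8) in Arhgef2-/- NT and 117.9 (76.3 to 132.0) in Arhgef2-/- AP3. All 4 intervals overlapped, and the WT change of 0.26 on the log2 scale had an interval of -0.19 to 0.70. Tbcb, the cofactor that takes up alpha tubulin (chr7:30224131-30232029), was at 56.3 FPKM (43.8 to 68.5), 61.1 (46.4 to 75.1), 54.0 (41.8 to 65.5) and 56.1 (43.1 to 68.7) in the same order of groups. Its transcript overlaps Polr2i, a gene on the opposite strand at 22.8 to 27.2 FPKM, and the study's methods do not say whether the Cuffdiff step behind these FPKM used the strand.

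Tbcc, the cofactor that triggers GTP hydrolysis and release of the finished dimer (chr17:46890621-46892463), was the lowest of the 10 members. It was at 9.67 FPKM (7.07 to 11.9) in WT NT, 10.4 (7.36 to 13.3) in WT AP3, 10.6 (7.74 to 13.0) in Arhgef2-/- NT and 10.6 (7.64 to 12.8) in Arhgef2-/- AP3. Tbcd, which carries beta tubulin into the complex with the other cofactors (chr11:121451949-121673151), was at 18.1 FPKM (14.5 to 21.8), 17.8 (14.3 to 21.4), 18.8 (14.9 to 22.7) and 18.3 (14.5 to 22.0). Tbcd had the narrowest range of the members, 0.07 on the log2 scale over the 4 groups, and it overlaps B3gntl1 on the opposite strand, which lay between 2.79 and 4.72 FPKM. The order of the 4 groups differed from cofactor to cofactor, and no neighbours in any of these orders had intervals apart. The direction of the small WT changes of Tbca, Tbcb and Tbcc depended on the scaling: all 3 turned from higher to lower when the group columns were set to the same sum of FPKM, and Tbcc also under upper quartile scaling.

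The ratio of one cofactor to another within a group does not depend on that scaling. Tbca was 2.09 times Tbcb (interval 1.51 to 2.88) in WT NT and 2.30 times (1.69 to 3.14) in WT AP3, and 2.07 and 2.10 times in Arhgef2-/- NT and AP3. Tbcd was 1.88 times Tbcc (1.36 to 2.59) in WT NT and 1.72 times (1.21 to 2.44) in WT AP3, and 1.76 and 1.72 times in the Arhgef2-/- groups. For each pair the intervals of the ratio overlapped in all 4 groups.

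Ttc5 (chr14:50765415-50785518) encodes the factor that recognises the start of nascent alpha and beta tubulin. The start it reads is short, and it is shown here by the first 24 coding bases of 4 tubulin mRNAs (GENCODE, GRCm38), with the first 12, the codons for the recognised residues, in capitals.
Tuba1a: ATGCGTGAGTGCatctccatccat
Tuba1c: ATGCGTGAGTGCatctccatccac
Tubb2a: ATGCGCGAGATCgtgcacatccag
Tubb5: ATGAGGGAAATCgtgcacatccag
Of these 12 bases, 9 were the same in all 5 alpha genes read and 9 in all 6 beta genes read.

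The Ttc5 level was 19.3 FPKM (15.4 to 23.1) in WT NT, 12.2 (9.07 to 15.3) in WT AP3, 21.2 (15.9 to 26.6) in Arhgef2-/- NT and 18.6 (14.1 to 23.3) in Arhgef2-/- AP3. The WT AP3 group was lowest and its interval ended just under that of untreated WT cells, while the 2 Arhgef2-/- intervals overlapped. The log2 ratio of drug to no treatment was -0.62 (-1.06 to -0.19) in WT and -0.18 (-0.67 to 0.30) in Arhgef2-/-. Treated Arhgef2-/- cells exceeded treated WT cells by 0.57 (0.09 to 1.05), yet the difference between the 2 genotypes' changes, 0.44, had an interval of -0.21 to 1.10 that held 0. With the columns set to the same sum of FPKM that difference was 0.66 and its interval, 0.0050 to 1.31, just left out 0. The same scaling moved the median of all genes for the difference of the changes by 0.21. The share of all genes with such an interval above 0 rose with it, from 3.52% to 9.63%. Of the tubulin mRNAs themselves, 11 of 11 alpha and beta genes past the filter had a drug log2 ratio above 0 in each genotype. The lowest in WT was Tuba8, at 0.05. Intervals were apart and higher for 9 in WT and 11 in Arhgef2-/-, against 9.19% and 2.75% of all genes. The median log2 ratio was 1.42 in WT and 1.73 in Arhgef2-/-. Gene by gene, the difference of the changes had a median of -0.0044, with 5 genes above 0 and 6 below.

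The deadenylase module that acts with TTC5, listed as Cnot1, Cnot7, Cnot8, Cnot10, Cnot11 and the adaptor Scaper, was measured for 6 of 6 genes. None had intervals apart between drug and no treatment in either genotype, and the median log2 ratio was -0.02 in WT. Cnot7, a catalytic deadenylase, had the widest WT difference of the module, from 24.0 FPKM untreated to 37.9 with the drug (log2 ratio 0.64), against 24.1 and 28.8 FPKM in Arhgef2-/-. Cnot10, which pairs with CNOT11, was at 14.0 and 12.4 FPKM in WT.

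Stmn1 (chr4:134468320-134473843), which encodes stathmin, the protein that sequesters free dimers, had the highest untreated level of the 10 members. It was at 139.0 FPKM (103.0 to 165.3) in WT NT, 132.2 (97.3 to 156.3) in WT AP3, 128.5 (94.7 to 152.4) in Arhgef2-/- NT and 124.9 (92.0 to 148.2) in Arhgef2-/- AP3. The 4 intervals overlapped and the log2 ratio for the drug was -0.07 in WT and -0.04 in Arhgef2-/-. The other stathmins, Stmn2, Stmn3 and Stmn4, were all under 1 FPKM, so nearly all stathmin transcript was Stmn1. A processed copy of Stmn1 elsewhere in the genome was at 0 in 3 groups and at 0.0215 FPKM in the 4th, Arhgef2-/- NT.

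The end-binding proteins EB1 and EB2 mark the growing plus end, and their genes differed with the drug in opposite directions in WT cells. Mapre1, which encodes EB1 (chr2:153741287-153773314), was at 33.5 FPKM (24.7 to 39.6) in WT NT, 47.4 (36.0 to 57.7) in WT AP3, 35.0 (25.9 to 41.4) in Arhgef2-/- NT and 41.1 (30.6 to 49.0) in Arhgef2-/- AP3. The treated groups were the higher pair, with overlapping intervals throughout, and the log2 ratio was 0.49 (0.04 to 0.94) in WT and 0.23 (-0.22 to 0.67) in Arhgef2-/-. Mapre2, which encodes EB2, on chromosome 18, was at 21.9 FPKM (17.2 to 26.7) in WT NT, 13.4 (10.9 to 15.9) in WT AP3, 24.2 (19.7 to 28.6) in Arhgef2-/- NT and 21.7 (17.7 to 25.7) in Arhgef2-/- AP3. Only the treated WT group was low, and its interval lay below those of the other 3 groups.

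Mapre2 had the widest range of the members over the 4 groups, 0.81 on the log2 scale. Its log2 ratio for the drug was -0.67 (-1.06 to -0.28) in WT and -0.15 (-0.51 to 0.21) in Arhgef2-/-, and treated Arhgef2-/- cells exceeded treated WT cells by 0.66 (0.30 to 1.01). The difference between the 2 changes was 0.52 with an interval of -0.01 to 1.05 as deposited. With the columns set to the same sum it was 0.74 with an interval of 0.21 to 1.27, which leaves out 0. That scaling also moved the median of all genes for this difference by 0.21. The share of all genes with such an interval above 0 rose with it, from 3.52% to 9.63%. Within a group, where scaling cancels, Mapre1 was 1.53 times Mapre2 (1.12 to 2.08) in WT NT and 3.55 times (2.64 to 4.76) in WT AP3, 2 intervals that did not overlap. In Arhgef2-/- cells the ratio was 1.45 (1.08 to 1.93) untreated and 1.90 (1.42 to 2.54) with the drug, with overlapping intervals. Mapre3, which encodes the EB protein best known from neurons, stayed between 2.66 and 3.50 FPKM.

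Genes with a profile close to Mapre2 over the 4 groups were looked for among 7724 genes with at least 5 FPKM in every group, by the Euclidean distance between log2(FPKM + 1) values centred on their own mean. The closest 5 were Rars2, a mitochondrial arginyl-tRNA synthetase, at a distance of 0.0257, Sema4d, a semaphorin, at 0.0332, Umps, a pyrimidine synthesis enzyme, at 0.0371, Pctp, a phosphatidylcholine transfer protein, at 0.0420, and Pop5, a subunit of RNase P, at 0.0442. Rars2, for instance, was at 14.9, 8.91, 16.5 and 15.0 FPKM in WT NT, WT AP3, Arhgef2-/- NT and Arhgef2-/- AP3. Ttc5 was the 11th closest gene, at 0.0599, and the next member, Tbcd, was the 2647th. The 4 points of each profile come from the same libraries, and the order of distances is a description. The WT drug log2 ratio of Mapre2 alone had an interval of -1.06 to -0.28, far wider than these distances. The order among the closest genes is therefore uncertain.

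The lattice-binding genes were the higher members with the drug. Map4, which encodes the main microtubule-associated protein outside neurons (chr9:109931774-110083954), was at 37.3 FPKM (29.7 to 44.8) in WT NT, 55.8 (43.4 to 70.4) in WT AP3, 35.4 (26.7 to 44.7) in Arhgef2-/- NT and 44.4 (33.9 to 56.2) in Arhgef2-/- AP3. Its log2 ratio for the drug was 0.57 (0.12 to 1.02) in WT and 0.32 (-0.18 to 0.82) in Arhgef2-/-. Map7d1, a relative of MAP7 that binds the lattice and kinesin-1 (chr4:126232168-126256319), was at 46.3 FPKM (37.7 to 54.8), 74.4 (60.8 to 88.0), 44.7 (35.7 to 53.8) and 54.0 (43.3 to 64.6) in the same order of groups. Both genes had the same order of groups, WT AP3 first, then Arhgef2-/- AP3, WT NT and Arhgef2-/- NT, and all neighbours in that order had overlapping intervals.

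For Map7d1 the 2 WT intervals were apart, with a log2 ratio of 0.67 (0.31 to 1.04), against 0.27 (-0.13 to 0.67) in Arhgef2-/-. Treated Arhgef2-/- cells were below treated WT cells by a log2 ratio of -0.46 (-0.84 to -0.08), and the difference between the changes was -0.41 (-0.95 to 0.14). The ratio of Map7d1 to Map4 was 1.24, 1.33, 1.26 and 1.22 in the 4 groups, so both genes kept their proportion within intervals that all overlapped. When the columns were set to the same sum of FPKM, the WT log2 ratios became 0.40 (0.03 to 0.77) for Map7d1, 0.30 for Map4 and 0.22 for Mapre1, still above 0. Under that scaling the 2 WT intervals of Map7d1 overlapped and those of the log2 ratio held 0 for Map4 and Mapre1, while Mapre2 and Ttc5 were at -0.93 and -0.88.

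**Figure D2:**
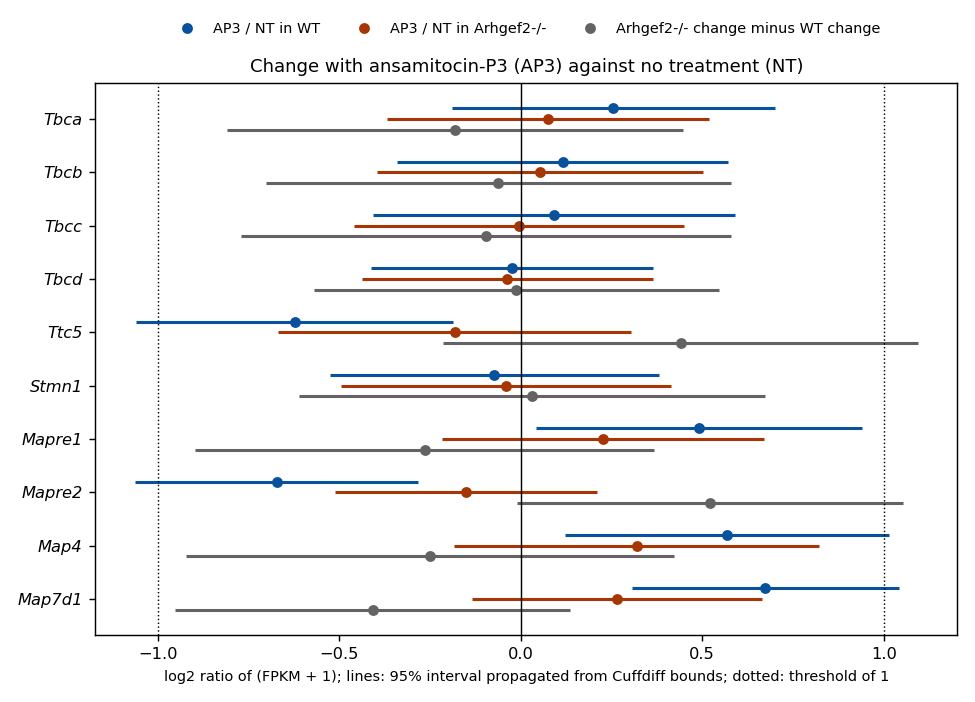
Log2 ratio of (FPKM + 1) (horizontal axis) for drug against no treatment in WT (blue) and Arhgef2-/- (brown), and the Arhgef2-/- change minus the WT change (grey), with propagated 95% intervals as lines. The WT interval lies above 0 for Mapre1, Map4 and Map7d1 and below 0 for Ttc5 and Mapre2, all 10 Arhgef2-/- intervals cross 0, and so do all 10 grey intervals, on the deposited scale.

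Because Ttc5 and Map7d1 differed in opposite directions with the drug in WT, the 250 bases before their RefSeq starts are shown (GRCm38.p6), with CCAAT and GGGCGG boxes, on either strand, in capitals. The Ttc5 window, chr14:50785521-50785770 on the minus strand, was 50.8% G and C, and the Map7d1 window, chr4:126256320-126256569 on the minus strand, was 69.2%.
Ttc5: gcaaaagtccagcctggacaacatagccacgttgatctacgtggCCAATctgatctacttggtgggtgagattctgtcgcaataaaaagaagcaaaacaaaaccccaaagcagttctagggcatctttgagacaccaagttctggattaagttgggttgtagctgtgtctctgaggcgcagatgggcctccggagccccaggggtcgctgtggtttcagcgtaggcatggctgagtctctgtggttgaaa
Map7d1: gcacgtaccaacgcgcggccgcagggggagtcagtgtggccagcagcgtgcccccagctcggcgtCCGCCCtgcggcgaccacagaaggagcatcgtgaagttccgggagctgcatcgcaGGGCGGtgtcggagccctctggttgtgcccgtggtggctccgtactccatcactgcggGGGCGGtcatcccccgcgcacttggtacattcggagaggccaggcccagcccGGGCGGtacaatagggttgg
The median over 32851 RefSeq windows was 52.4% G and C. The Ttc5 window held 1 CCAAT box and no GGGCGG box, and the Map7d1 window held 4 GGGCGG boxes and no CCAAT box. A link between the base content or these boxes and the change with the drug was not tested. Windows were found for 8 of the 10 members, all but Stmn1 and Mapre2, and the search covered these bases and 50 more past the start, on both strands and at all listed starts. CCAAT was present for 5 of the 8 members, in 6 of their 10 windows, against 37.4% of all windows. GGGCGG was present for 7 of the 8, all but Ttc5, in 8 of the 10 windows, against 35.7% of all windows. The AP-1 motif TGANTCA (7.81% of all windows), the CArG box (1.63%) and the NF-kappaB motif (8.46%) were found in 0 of the 8, which says only that these letters are not in these windows.

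The counts over the 10 members were read against the 11397 genes that reached 1 FPKM in any of the 4 groups, all 10 members among them. A log2 ratio past 1 in either direction was reached by 0 of 10 members in each comparison. The share of all genes past 1 was 4.94% for the drug in WT, 1.08% for the drug in Arhgef2-/-, 1.88% for genotype in untreated cells, 4.06% for genotype in treated cells and 1.90% for the difference of the changes.

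By the rule that the 2 group intervals lie apart, 1 member was higher with the drug in WT (Map7d1) and 2 were lower (Mapre2 and Ttc5), where all genes gave 9.19% higher and 7.58% lower. In Arhgef2-/- cells 0 of 10 had intervals apart, against 3.70% of all genes in either direction. Between genotypes, 0 of 10 were apart in untreated cells (4.74% of all genes), and in treated cells Mapre2 alone was higher in Arhgef2-/- (7.02% of all genes higher, 6.73% lower). These backgrounds depend on the scaling: of the genes with intervals apart in WT, 54.8% were higher as deposited, 39.7% under upper quartile scaling and 21.9% with columns set to the same sum.

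By the less strict rule that the propagated interval leaves out 0, 3 members were higher with the drug in WT and 2 were lower, against 15.6% and 14.5% of all genes. No member passed it in Arhgef2-/- (8.97% of all genes). In treated cells 2 members, Mapre2 and Ttc5, were higher in Arhgef2-/- than in WT and 1, Map7d1, was lower, against 12.8% and 13.2% of all genes. For the difference of the changes it was 0 of 10 as deposited, against 3.52% of all genes above 0 and 4.77% below. It became 1 of 10 under upper quartile scaling (Mapre2, above 0, with 4.71% of all genes above) and 2 of 10 with columns set to the same sum (Mapre2 and Ttc5, above 0, with 9.63% of all genes above).

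The size of the drug change was smaller in Arhgef2-/- than in WT for 9 of 10 members, where 77.5% of all genes had the smaller change in Arhgef2-/-. The exception was Tbcd, with log2 ratios of -0.02 in WT and -0.04 in Arhgef2-/-. The median size of the log2 ratio, without sign, was 0.37 over the members and 0.26 over all genes in WT, and 0.11 and 0.13 in Arhgef2-/-. With sign, the WT median was 0.10 over the members and 0.00 over all genes. The median range over the 4 groups was 0.41 for the members and 0.41 for all genes.

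**Figure D3:**
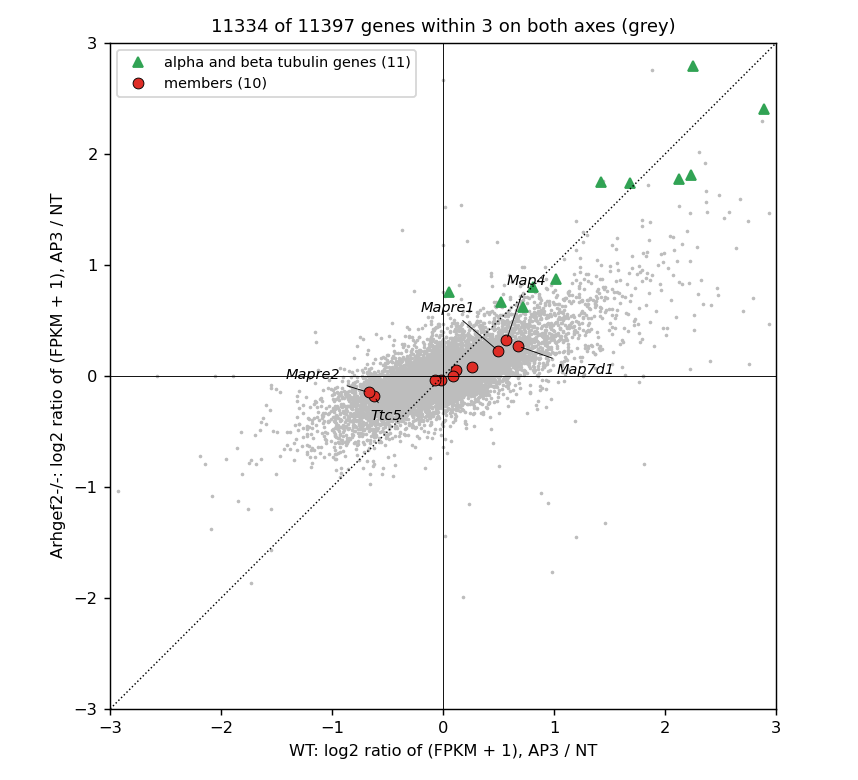
Log2 ratio of (FPKM + 1) for drug against no treatment in WT (horizontal axis) and Arhgef2-/- (vertical axis), with a grey point for each of the 11334 genes within 3 on both axes, red circles for the 10 members, green triangles for 11 tubulin genes and a dotted line where both changes are equal. The members lie between -0.67 and 0.67 in WT and between -0.18 and 0.32 in Arhgef2-/-, and Mapre2, Ttc5, Mapre1, Map4 and Map7d1 lie nearer to 0 in Arhgef2-/- than in WT.

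Without drug the intervals of the 2 genotypes overlapped for all 10 genes. The log2 ratio of Arhgef2-/- to WT lay between -0.11 (Stmn1) and 0.13 (Mapre2), with a median size of 0.07 over the members and 0.13 over all genes. By the less strict rule, chosen after the data were seen, 5 members differed with the drug in WT. Their untreated WT and Arhgef2-/- values were close together. Ttc5 was at 19.3 and 21.2 FPKM, Mapre2 at 21.9 and 24.2 FPKM and Map7d1 at 46.3 and 44.7 FPKM. Mapre1 was at 33.5 and 35.0 FPKM and Map4 at 37.3 and 35.4 FPKM. With the drug the genotype ratio spread from -0.46 (Map7d1) to 0.66 (Mapre2).

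Levels of marker genes differed along with these values. In WT the 6 macrophage markers summed to 220 FPKM untreated and 167 with the drug, and in Arhgef2-/- to 289 and 260, with 5 of 6 lower with the drug in each genotype. Of the 10 cell cycle genes, 10 were lower with the drug in WT, and their sum was 595 FPKM in WT NT, 490 in WT AP3, 559 in Arhgef2-/- NT and 534 in Arhgef2-/- AP3. The dendritic cell sum was highest in WT AP3, as were Map4, Map7d1 and Mapre1, but Cd74 carried it, from 3676 FPKM in WT NT to 4935 in WT AP3. The other markers were split. H2-Aa, at 925 FPKM in WT NT and 987 in WT AP3, and Zbtb46, at 14.8 and 22.1 FPKM, were also highest in WT AP3. H2-Ab1 was highest in WT NT, at 633 FPKM against 623 in WT AP3. Itgax was highest in Arhgef2-/- AP3, at 175 FPKM against 132 in WT AP3. Flt3 was at 2.10 FPKM in WT NT and 1.07 in WT AP3, with intervals apart. In these bulk samples, fewer cells of a type and less RNA per cell cannot be told apart, and the part of cell makeup in the results was not tested.

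The rest of the microtubule system was read from 8 lists holding 74 other genes, of which 71 were in the table and 57 passed the filter. With the drug in WT, 7 of the 57 had higher intervals apart and 0 had lower ones, and in Arhgef2-/- 2 were higher and 0 lower. The higher ones were 12.3% of the 57 in WT, against 9.19% of all genes, and 3.51% in Arhgef2-/-, against 2.75% of all genes. The median log2 ratio was 0.06 in WT and 0.04 in Arhgef2-/-. As background for the counts of signs below, 5710 of all 11397 genes were above 0 and 5655 below 0 in WT. In Arhgef2-/- they were 5420 and 5955. Like the cofactors among the members, 0 of the 17 other folding genes had intervals apart in any comparison of 2 groups. They comprised CCT subunits, prefoldins and the remaining cofactors. Of all genes, 16.8% were apart for the drug in WT and 3.70% in Arhgef2-/-. For genotype it was 4.74% untreated and 13.7% treated. The widest WT differences with the drug in this list were Vbp1, a prefoldin subunit, at 35.2 and 45.7 FPKM, and Tbce, the alpha tubulin cofactor that works with TBCB, at 16.4 and 20.3 FPKM. Between treated genotypes the prefoldin gene Pfdn2, named after its values were seen, was at 57.4 FPKM in WT and 85.9 in Arhgef2-/- (log2 ratio 0.57). There 9 of the 17 were above 0 and 8 below.

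The 7 other plus-end genes lay on the side of Mapre1 and not of Mapre2, which was at -0.67 in WT. All 7 had a WT log2 ratio above 0, down to 0.00 for Ckap5, where 5710 of all 11397 genes were above 0. Of the 7, 3 had intervals apart, against 9.19% of all genes apart and higher. Clip2, a plus-end linker protein, was at 12.6 FPKM in WT NT and 29.7 in WT AP3 (log2 ratio 1.17), and at 13.4 and 22.0 FPKM in Arhgef2-/- (0.67). It was the 1 gene of the 57 past a log2 ratio of 1. Clasp2, a protein that stabilises plus ends, was at 8.98 and 15.7 FPKM in WT and 7.93 and 12.1 in Arhgef2-/-, and its relative Clasp1, named after its values were seen, at 9.16 and 14.3 FPKM in WT. Clip2 and Clasp2 also had intervals apart in Arhgef2-/-, where 5 of the 7 plus-end genes were above 0. Under the same-sum scaling the median of all genes in WT shifted by -0.24, more than the log2 ratio of Ckap5, Clip1 and Mapre3.

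Among other lattice proteins and the MARK kinases, which release them from the lattice by phosphorylation, 5 of 13 passed the filter. These were the lattice proteins Map1s and Map6 and the kinases Mark2, Mark3 and Mark4. All 5 were above 0 in WT, with a median log2 ratio of 0.34, and 4 of 5 in Arhgef2-/-, with a median of 0.04. Mark4 was at 12.1 FPKM in WT NT and 22.6 in WT AP3 (log2 ratio 0.86) but at 10.9 and 13.0 FPKM in Arhgef2-/-, and its treated level was lower in Arhgef2-/- than in WT with intervals apart. Map1s, a lattice protein of many tissues, was at 14.2 and 19.8 FPKM in WT and at 14.9 and 15.4 FPKM in Arhgef2-/-.

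The tubulin-modifying enzymes were mixed, with 4 of 9 above 0 in WT and 3 with higher intervals apart. Sirt2, a tubulin deacetylase, was at 37.2 FPKM in WT NT and 58.9 in WT AP3, and at 32.0 and 34.7 FPKM in Arhgef2-/-. Ttl, the tyrosine ligase of alpha tubulin, was at 4.50 and 7.66 FPKM in WT and at 4.60 and 5.67 FPKM in Arhgef2-/-. The third was Vash1, a detyrosinating enzyme, named after its values were seen, at 1.55 and 2.41 FPKM in WT. In treated cells Sirt2 was lower in Arhgef2-/- than in WT with intervals apart. With Mark4 that made 2 of the 57 genes, where 6.73% of all genes were apart and lower.

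The gamma-tubulin nucleation genes lay on the other side, with 5 of 6 below 0 in WT and 3 of 6 in Arhgef2-/-, and 0 with intervals apart in either. Tubg1, gamma-tubulin itself, was at 14.3 FPKM in WT NT and 10.6 in WT AP3, and Tubgcp5, a ring complex subunit, at 5.80 and 3.86 FPKM. Of 7 severing and minus-end genes past the filter, 4 were above 0 and 0 had intervals apart in WT. The widest difference there was Fignl1, an AAA ATPase of the fidgetin family, at 13.7 and 9.30 FPKM, and the next was Camsap2, a minus-end binding protein, at 4.47 and 5.34 FPKM.

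**Figure D4:**
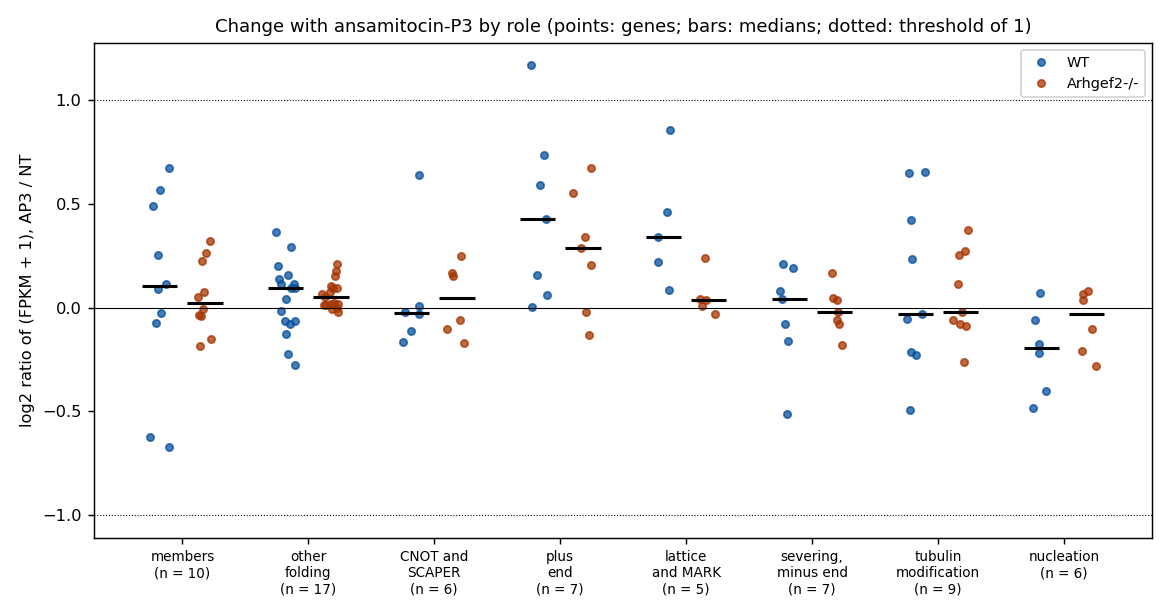
Log2 ratio of (FPKM + 1) for drug against no treatment (vertical axis) for genes grouped by role, in WT (blue) and Arhgef2-/- (brown), with a point for each gene past the filter, black bars for medians and dotted lines at 1 and -1. The WT medians are 0.43 for the 7 plus-end genes, -0.20 for the 6 nucleation genes and 0.09 for the 17 other folding genes. The 5 genes of the lattice and MARK group are the lattice proteins Map1s and Map6 and the kinases Mark2, Mark3 and Mark4, with a WT median of 0.34.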

How the data were processed

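Poly(A) RNA was sequenced from 8 libraries, 2 per group, after a stranded mRNA preparation. The authors deposited FPKM per gene with 95% bounds, made with Cuffdiff 1.05 on mm10, as 1 value per gene and group from both libraries. The aligner, the annotation and any use of strand are stated in the methods for a separate count analysis, not used here, and not for the Cuffdiff step. A target depth is stated, but the reads obtained per library are not, so no counting interval was made. The 2 knockout columns carry the genotype in their names with c read as control and s as stimulated, and the other 2 were taken as WT.

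Genes with status OK (23249) and at least 1 FPKM in at least 1 group (11397) entered log2 ratios of (FPKM + 1) with Python 3.11.15, numpy 2.4.6 and pandas 2.3.3. A gene was counted past a log2 ratio of 1, or where the 95% intervals lay apart. The calculation was tested on simulated data. With 1 value per group no test was run. Members and lists were chosen with earlier results of these data known. Besides members, genes were named that passed 1 in any comparison or had the 2 widest WT changes of a list at 5 FPKM or more. The gene lists, cell markers included, are otherwise given as counts and sums. Alternatives were another pseudocount, filter, threshold or scaling, and a propagated interval that leaves out 0, the last chosen after seeing the data, as was its use with other scalings.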

Additional observations from a re-analysis of the deposited data

How the results depend on the processing

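No member passed a log2 ratio of 1 under any pseudocount, filter or scaling tried. With a threshold of 0.5 it was 4 members for the drug in WT, 2 for genotype in treated cells and 1 for the difference of the changes, and 0 in the other comparisons. The number of all genes past 1 was 563 for the drug in WT, 123 for the drug in Arhgef2-/-, 214 for genotype untreated, 463 for genotype treated and 216 for the difference of the changes. In that order it became 956, 212, 372, 801 and 387 with a pseudocount of 0.1 FPKM, 318, 77, 101, 206 and 123 with 5 FPKM, and 2671, 660, 818, 2205 and 1364 with the threshold of 0.5. Intervals apart gave 1911, 422, 540 and 1567 genes in the 4 comparisons of 2 groups. The rule that the propagated interval leaves out 0 gave 3431, 1022, 1145 and 2966, with 5 members for the drug in WT and 3 for genotype in treated cells. A filter of 5 FPKM left 349 genes apart between untreated genotypes, since fewer genes were counted. With columns set to the same sum, 2 members, Mapre2 and Ttc5, had intervals apart between genotypes in treated cells, and 82.1% of all genes apart there were higher in Arhgef2-/-, against 51.1% as deposited. That scaling moved the median of all genes by 0.23 there and by 0.21 for the difference of the changes, and turned the sign of Tbca, Tbcb, Stmn1 and Mapre1 in the first and of the 4 cofactors in the second. Upper quartile scaling turned Tbcb and Tbcd in the second, with 61.6% higher for genotype in treated cells. The number of members whose interval for the difference of the changes leaves out 0 was 0 as deposited and with the median ratio, 1 under upper quartile scaling and 2 with the same sum. Of 350 values of the members' log2 ratios under the alternatives, 350 lay within the interval of the value as deposited and 14 changed sign. The filter settings cannot change a member's ratio, and the shifts from scaling were smaller than these wide intervals. The count is therefore no check of the calls, some of which changed with scaling as given above.

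No paired analysis was possible because the table holds 1 value per gene and group, and leaving out a replicate was not run for the same reason. The widths of the intervals, with a median near 45.2% of the FPKM, limit what is told apart: a difference within them was not detectable here, which does not show that levels were the same.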
